A study of Mus musculus with 18 samples.

Results

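The 9 genes described here encode enzymes that break down, rebuild or divert hexose sugars: Pck1, G6pc, Fbp1, Khk, Aldoa, Hk2, Pfkl, Pkm and Ldha. They were chosen by name, matched to their Ensembl identifiers, and are 9 of the 47729 gene identifiers in the deposited tables. All 9 were among the 15572 genes with enough reads to be tested. The study measured polyadenylated RNA by bulk sequencing in epithelial cells that were sorted from mouse ileum, the distal end of the small bowel. The 3 groups had 6 libraries each: lactating females on day 7 of lactation, virgin females of matching age, and virgin males of matching age. All mice had a breeding diet (RM3) while breeding and a maintenance diet (RM1) in maintenance colonies and during the experiment. The sources used here do not give the strain, the age in weeks, the litter size or the sorting gate. The labels do not state that each library is a separate animal, so the p-values measure the spread between these libraries.

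Glycolysis converts glucose to pyruvate, and lactate dehydrogenase turns pyruvate into lactate. Gluconeogenesis runs the other way around the irreversible steps of glycolysis, through PEP carboxykinase, fructose bisphosphatase and glucose 6-phosphatase. Fructose enters through ketohexokinase. The small intestine expresses all 3 sets of enzymes. Absorptive cells also send part of the sugar and glutamine they take up to the portal blood as lactate, glucose or other products. Intestinal cells change their enzyme content as they leave the crypt, where they divide, and climb the villus.

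Library totals ran from 34577104 to 49039300 counts, so that 3 counts, the floor used here, corresponded to 0.0549 to 0.0882 CPM, the unit of reads scaled to the normalised library size in which levels are given. The 9 epithelial markers summed to 13560 to 22540 CPM per library. The summed level of 10 immune markers was 12.9 to 52.0 CPM, that of 10 markers of stroma, muscle and endothelium 0.224 to 0.981 CPM, and that of 5 red blood cell markers 0 to 3.47 CPM. No listed marker was at 0 in all libraries. Virgin female 2 and virgin male 6 stood apart by the predicted gene Gm42418, with 31050 and 29980 CPM, where the remaining 16 libraries had 1230 to 4477 CPM. Marker lists for the position along the crypt and villus and along the intestine held no gene called by edgeR. The median log2 fold change of 35 cell cycle genes was 0.09 in lactating against virgin females, 0.35 in virgin males against virgin females and -0.28 in lactating females against virgin males, with 0 of 35 called and 0 at an unadjusted p under 0.05 in each. For 6 villus tip genes the medians were 1.27, -0.29 and 1.41 (2, 0 and 4 at an unadjusted p under 0.05), for 4 genes of the distal intestine 0.40, -0.53 and 0.95 (0, 0 and 4), and for 5 genes of the proximal intestine -0.36, -0.25 and -0.32 (1, 2 and 1). The 1 proximal gene counted in lactating females against males was higher in lactating females, against the median of its list.

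By GENCODE M21 on build GRCm38, the genes of glucose and fructose handling lie as follows: Pck1 at chr2:173153048-173159273 and G6pc at chr11:101367561-101377903 on the forward strand, Fbp1 at chr13:62864753-62888282 on the reverse strand, and Khk at chr5:30921431-30931248 on the forward strand. The glycolytic genes Aldoa (chr7:126795234-126800751), Hk2 (chr6:82725025-82774454) and Pfkl (chr10:77986947-78010083) lie on the reverse strand, and Pkm (chr9:59656368-59679375) and Ldha (chr7:46841475-46855627) on the forward strand. All 9 are annotated as protein-coding.

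The promoters of 4 of the genes are shown because these genes carry the patterns described further on: Pck1 and G6pc varied together, Hk2 was high in 2 libraries, and Ldha had the highest level per length of the 9. RefSeq holds a promoter for 9 of the 9 genes, 13 in all. Each stretch lies within the 250 bases before a RefSeq transcription start (build GRCm38.p6), leaving out bases that GENCODE M21 assigns to an exon. Capitals mark any match on either strand to 6 motifs. The core of the hypoxia response element was searched as ACGTG. The E-box was searched as CACGTG, and each E-box also holds the hypoxia core on both strands. The cAMP response element was searched by its first 5 bases, TGACG, and whole as TGACGTCA, which holds the shorter form on both strands. The TATA box was searched as TATAAA. The CCAAT box was searched as CCAAT.
Pck1, chr2:173152823-173153047, forward strand: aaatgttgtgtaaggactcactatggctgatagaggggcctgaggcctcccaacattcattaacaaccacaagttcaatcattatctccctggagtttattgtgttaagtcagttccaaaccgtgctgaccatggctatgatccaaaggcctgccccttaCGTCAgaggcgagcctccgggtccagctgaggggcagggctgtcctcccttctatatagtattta
G6pc, chr11:101367466-101367560, forward strand: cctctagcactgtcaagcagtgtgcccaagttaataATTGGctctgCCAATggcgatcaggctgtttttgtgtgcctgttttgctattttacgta
Hk2, chr6:82774455-82774704, reverse strand: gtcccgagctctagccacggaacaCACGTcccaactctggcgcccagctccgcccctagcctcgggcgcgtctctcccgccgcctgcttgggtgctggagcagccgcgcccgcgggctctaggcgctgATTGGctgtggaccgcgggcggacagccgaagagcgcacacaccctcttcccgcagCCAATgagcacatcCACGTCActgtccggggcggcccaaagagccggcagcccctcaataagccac
Ldha, chr7:46845554-46845803, forward strand, first of 2 RefSeq starts: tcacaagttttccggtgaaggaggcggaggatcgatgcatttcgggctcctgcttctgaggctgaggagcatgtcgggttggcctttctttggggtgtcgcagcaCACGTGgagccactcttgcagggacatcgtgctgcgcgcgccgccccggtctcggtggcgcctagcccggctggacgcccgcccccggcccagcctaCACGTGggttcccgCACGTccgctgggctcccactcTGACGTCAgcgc

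The Pck1 promoter held TGACG once, on the reverse strand with its first base 90 bases before the start, and none of the other motifs. The G6pc promoter held CCAAT 214 and 204 bases before the start, and TATAAA 29 bases before it in a stretch that GENCODE counts as exon and that is not printed. The Hk2 promoter held 2 matches to ACGTG, 226 and 52 bases before the start, 1 to TGACG and 2 to CCAAT. The promoter of the first Ldha start held CACGTG at 2 places, 145 and 48 bases before that start. It also held a further ACGTG 34 bases and the whole cAMP response element 12 bases before that start. The promoter of the second Ldha start, which is not printed, held TGACG 143 bases before it and none of the other motifs. Over 32851 RefSeq promoters cut to the same 250 bases, 16.6% held ACGTG, 6.02% CACGTG, 17.8% TGACG, 1.55% TGACGTCA, 12.4% TATAAA and 33.8% CCAAT. A match describes the letters only.

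Levels of different genes were compared per length, as CPM per kilobase of annotated exon. Ldha had the highest mean of the 9 over the 18 libraries, at 306 ± 55.8 CPM per kilobase (SD, n = 18), and its lowest library (220.4) exceeded every library of the other genes except Khk, which reached 256.9. Aldoa (130 ± 21.2), Khk (121 ± 45.1), Pkm (88.8 ± 14.1) and Pck1 (60.6 ± 37.4) came next. G6pc (20.9 ± 11.6), Fbp1 (11.1 ± 3.41), Hk2 (5.97 ± 3.62) and Pfkl (4.62 ± 0.666) followed. From Aldoa down, each gene's libraries overlapped those of the next gene in this order. The length used matters for neighbours in this order: with the length of the principal transcript in place of the union of all exons, Pkm (182 ± 29.1) stood above Khk (138 ± 51.1), and Pfkl (8.27 ± 1.19) above Hk2 (6.46 ± 3.92).

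Several of the 9 were minor forms of their enzyme step in these cells. Hk2, the inducible hexokinase, made up 7.61% ± 3.70 (SD, n = 18) of hexokinase expression per length, while Hkdc1, a hexokinase domain gene, made up 91.0% ± 3.74. Hk1, the housekeeping form, made up 1.18%. Pfkl, the liver-type phosphofructokinase, held 15.03% ± 3.09 of its step against 80.7% ± 3.88 for the platelet-type Pfkp. Fbp1, the liver-type fructose bisphosphatase, held 5.92% ± 1.25 of its step, and Fbp2, the muscle-type form, 94.1% ± 1.25. Hkdc1 and Fbp2, and G6pc3 named further on, were singled out after their values were seen.

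The other steps were carried by a listed gene alone or by a pair. Ldha accounted for 99.98% of lactate dehydrogenase expression per length, since Ldhb had at most 0.249 CPM in any library and did not pass the filter on low counts. Pck1, the cytosolic PEP carboxykinase, held 95.4% ± 2.96 against the mitochondrial Pck2, and G6pc, the catalytic subunit known from liver and kidney, 67.6% ± 11.99 against the ubiquitous G6pc3. Pkm and Pklr, the pyruvate kinase gene of liver and red blood cells, were close, at 47.3% ± 3.84 and 52.7% ± 3.84, but this order rests on the length: with principal transcripts Pkm held 62.3%. With the same lengths Pfkl held 9.23%, still the smaller share beside Pfkp.

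**Figure D1:**
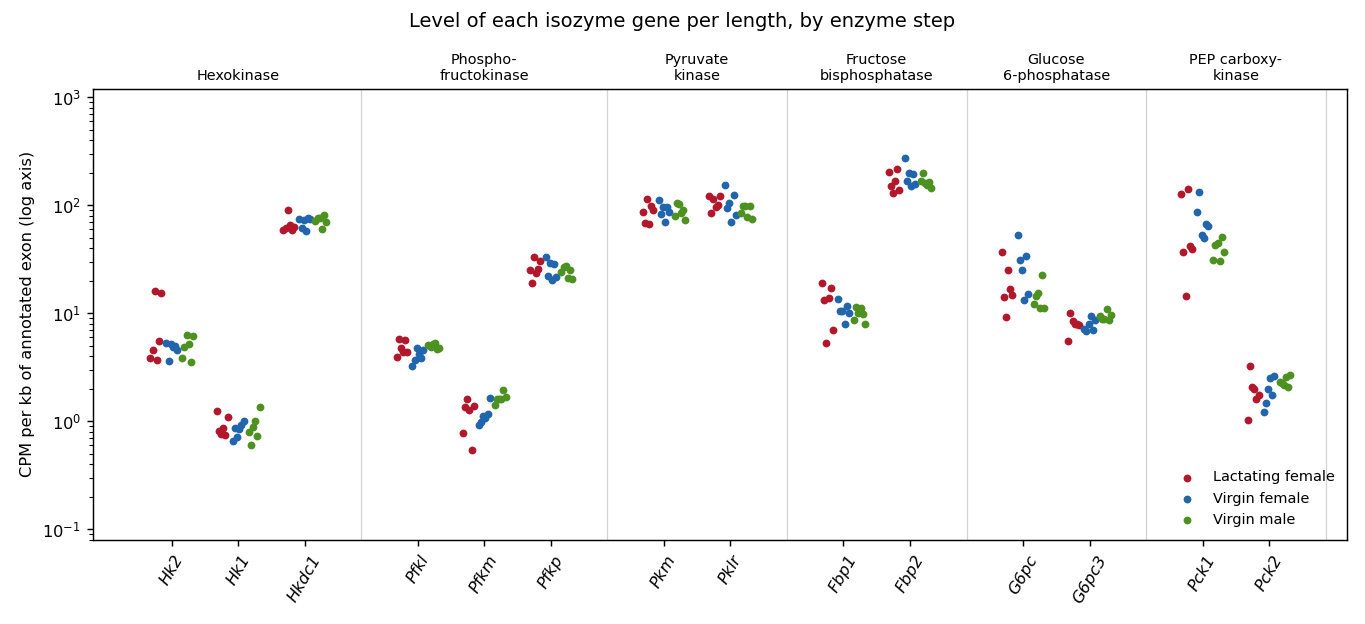
Level of each isozyme gene per length (CPM per kilobase of annotated exon, log axis) in each of the 18 libraries, by enzyme step and coloured by group. Hkdc1 lies above Hk2, Pfkp above Pfkl and Fbp2 above Fbp1 in all 18 libraries, whereas Pkm and Pklr lie at about the same height.

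The first question was whether sugar-metabolism genes differ with lactation or sex. Of the 9 genes, 0 passed an adjusted p under 0.05 in lactating against virgin females (edgeR quasi-likelihood test), where 0.0578% of all tested genes did. The count was also 0 in virgin males against virgin females, where 0.0835% did, and 0 in lactating females against virgin males, where 0.764% did. At an unadjusted p under 0.05 the counts were 2 of 9 (6.44% of all genes), 3 of 9 (8.32%) and 1 of 9 (15.9%). DESeq2 gave 2, 3 and 2 at an unadjusted p under 0.05 and voom gave 0, 3 and 0, with 0 after adjustment by either. The median log2 fold change of the 9 was 0.01, -0.04 and 0.20 in the 3 comparisons, beside -0.00261, -0.013 and -0.00844 over all tested genes. Each pair of comparisons shares a group of libraries, so the 3 sets of values are not independent.

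**Figure D2:**
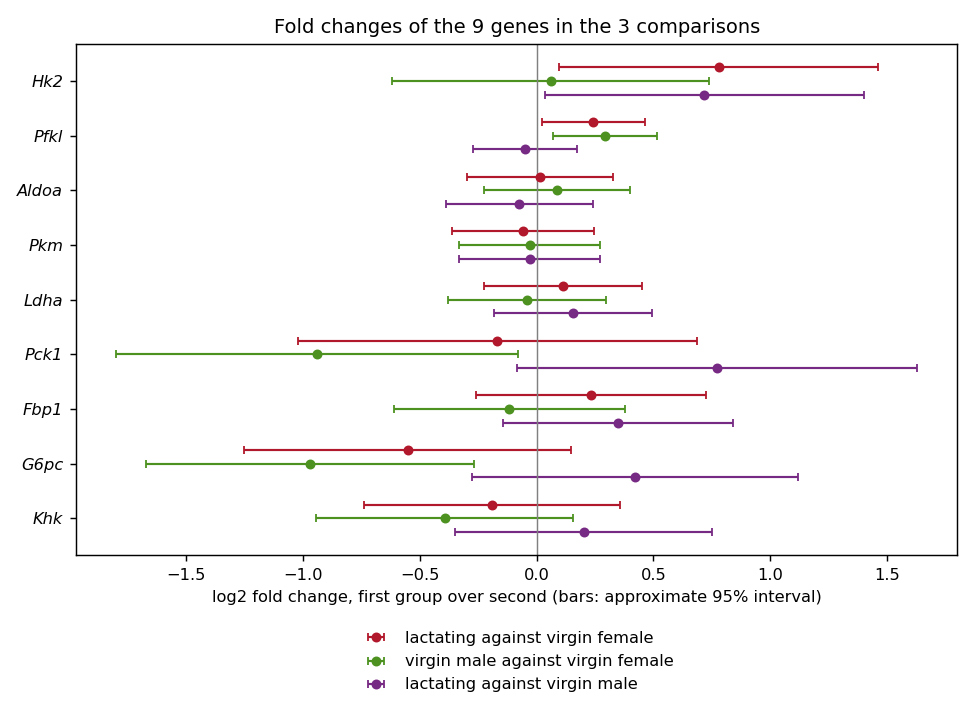
Log2 fold change of each of the 9 genes in the 3 comparisons, with bars for the approximate 95% interval. Intervals of Hk2 and Pfkl against virgin females, of Pck1, G6pc and Pfkl in males against virgin females, and of Hk2 against males lie on 1 side of 0, but none of these genes passed the adjusted threshold.

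Among the glycolytic genes, Hk2 had the widest spread in lactating females. Its level there was 22.1 CPM in the lowest library, 30.2 at the median and 95.6 in the highest, against 21.6, 29.3 and 31.9 CPM in virgin females and 21.2, 29.9 and 37.2 CPM in virgin males. Only lactating 3 (95.6) and lactating 6 (91.4) were high, while the other 4 lactating libraries (22.1 to 33.3) lay within the range of the virgins. The log2 fold change against virgin females was 0.78 (SE 0.326, interval 0.10 to 1.46, edgeR adjusted p = 0.701), and against males 0.72 (SE 0.325, adjusted p = 0.296). Without lactating 3 these values were 0.47 and 0.41, and without lactating 6 they were 0.50 and 0.44. Males and virgin females differed by 0.06 (interval -0.62 to 0.74).

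Pfkfb3, which makes the phosphofructokinase activator fructose 2,6-bisphosphate, was also high in lactating 3 and 6, at 31.0 and 35.1 CPM. It was 5.53 to 17.8 CPM in the other lactating libraries, but reached 31.2 CPM in virgin male 2, where Hk2 was at 28.9 CPM. Pfkfb3 was picked after its values were seen.

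Pfkl catalyses the committed step of glycolysis and was the least variable of the 9 genes. It was at 26.4 CPM in the lowest, 30.5 at the median and 38.9 in the highest lactating library, against 21.9, 26.9 and 32.0 CPM in virgin females and 31.5, 33.2 and 35.2 CPM in virgin males. The male libraries sat at the top of the virgin female range or above it, and only virgin female 3 (32.0) reached into the male range. The log2 fold change of males against virgin females was 0.29 (SE 0.106, interval 0.07 to 0.52, edgeR adjusted p = 0.565), and that of lactating against virgin females 0.24 (SE 0.106, adjusted p = 0.732). Lactating females and males differed by -0.05 (interval -0.27 to 0.17).

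Aldoa, which splits fructose 1,6-bisphosphate, Pkm and Ldha differed little between groups. Aldoa averaged 372 ± 81.2 CPM in the lactating group, 368 ± 74.5 CPM in virgin females and 391 ± 20.95 CPM in males (SD, n = 6 each). Pkm, which makes pyruvate, stood at 435 ± 89.2, 453 ± 71.3 and 444 ± 61.4 CPM in the same order, and Ldha at 1075 ± 172, 994 ± 234 and 966 ± 154 CPM. For these 3 genes every group overlapped every other, and the fold changes lay between -0.07 and 0.15 on the log2 scale in all 3 comparisons. The intervals for lactating against virgin females were -0.30 to 0.33 for Aldoa, -0.36 to 0.24 for Pkm and -0.23 to 0.45 for Ldha. Counts per gene do not tell the M1 and M2 splice forms of Pkm apart.

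**Figure D3:**
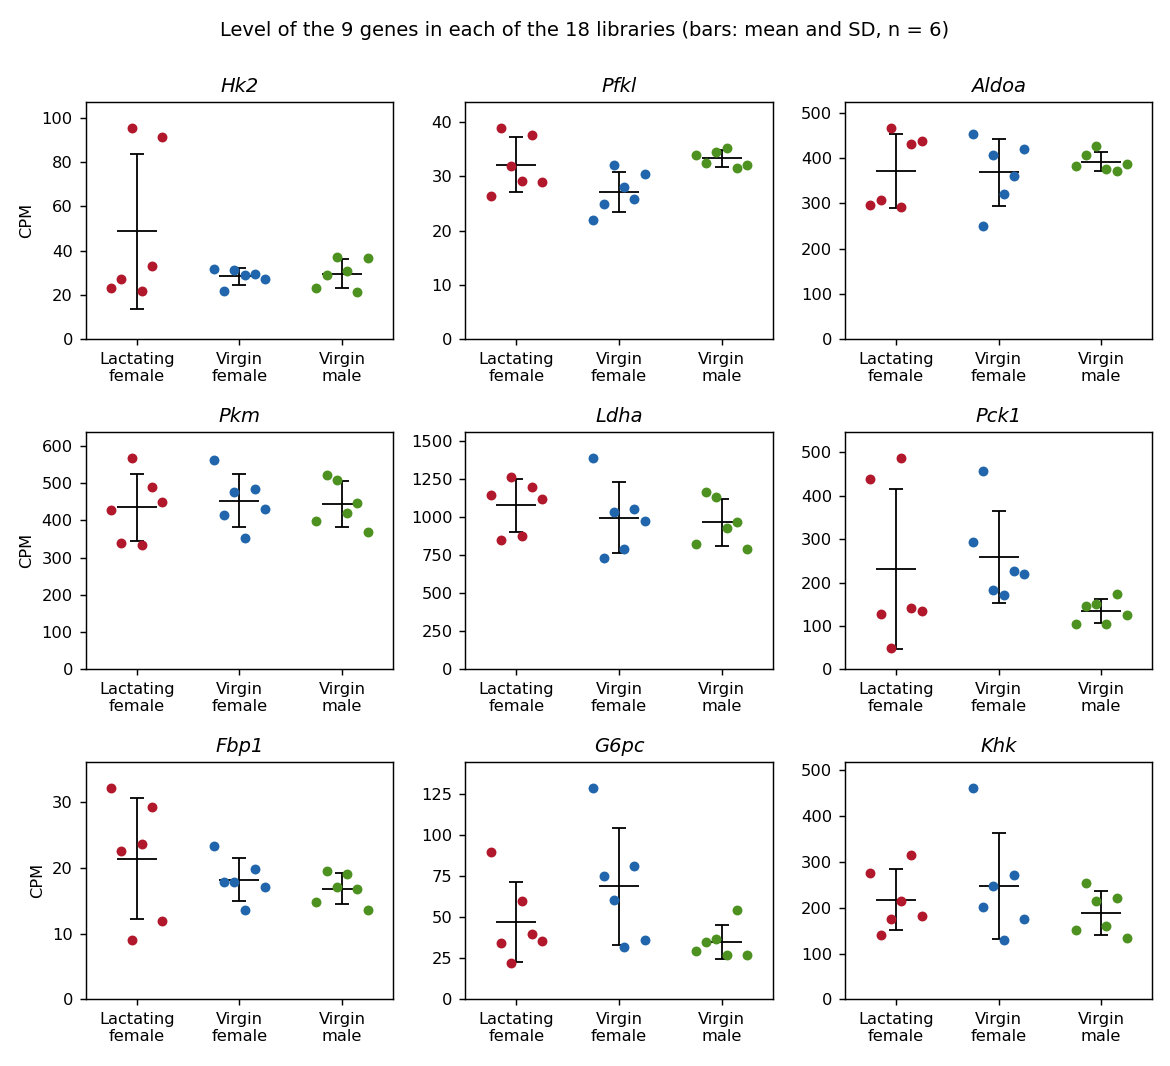
CPM of each of the 9 genes in each library, by group, with the mean and SD (n = 6). Hk2 is at 91.4 and 95.6 CPM in 2 lactating libraries and at most 37.2 CPM in the others, Pck1 is at 439 to 487.5 CPM in 2 lactating libraries and 1 virgin female library, and the groups overlap for every gene.

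Among the gluconeogenic genes, Pck1, which makes PEP from oxaloacetate, had the widest spread. It was at 49.3 CPM in the lowest, 139 at the median and 487.5 in the highest lactating library, against 172, 224 and 456 CPM in virgin females and 105, 136 and 174 CPM in virgin males. Lactating 1 and 4 and virgin female 2 were the 3 high libraries, and lactating 3, with the highest Hk2, was the lowest of all 18. Males and virgin females overlapped by a single library on each side: virgin male 5 (174) lay above virgin female 4 (172). The log2 fold change of males against virgin females was -0.94 (SE 0.411, interval -1.80 to -0.08, edgeR adjusted p = 0.565). Without virgin female 2 it was -0.70. Lactating against virgin females gave -0.17 (interval -1.02 to 0.69), and lactating females against males 0.77 (SE 0.409, interval -0.08 to 1.63, adjusted p = 0.351), which became 0.40 without lactating 4 and 0.48 without lactating 1.

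G6pc, which frees glucose from glucose 6-phosphate, was at 22.5 CPM in the lowest, 37.9 at the median and 90 in the highest lactating library, against 32.0, 67.8 and 129 CPM in virgin females and 27.2, 32.5 and 54.6 CPM in virgin males. Virgin females 1, 2, 3 and 5 (60.4 to 129) lay above all males, and virgin females 4 and 6 within the male range. The log2 fold change of males against virgin females was -0.97 (SE 0.336, interval -1.67 to -0.27, edgeR adjusted p = 0.565). The cell cycle list moved the other way in this comparison, as given above, and with the cell cycle score as a covariate the value was -0.36 (adjusted p = 1.0). Pck1 went from -0.94 to -0.54 with that covariate. Lactating against virgin females gave -0.55 (interval -1.25 to 0.15) for G6pc, which became -0.84 without lactating 1 and -0.28 without virgin female 1. Lactating females against males gave 0.42 (SE 0.333), which became 0.13 without lactating 1 and -0.05 with the covariate.

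Fbp1 removes a phosphate from fructose 1,6-bisphosphate. Its level averaged 21.4 ± 9.25 CPM in the lactating group, 18.2 ± 3.21 CPM in virgin females and 16.8 ± 2.33 CPM in males (SD, n = 6 each), with the lowest (9.05) and the highest (32.2) library both lactating. Its intervals spanned 0 in all 3 comparisons, for example -0.26 to 0.73 around 0.23 in lactating against virgin females, a value that was 0.08 without lactating 1, 0.12 without lactating 5, 0.39 without lactating 3 and 0.35 without lactating 6.

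Khk phosphorylates fructose, the first step of its breakdown. It averaged 217 ± 66.5 CPM in the lactating group, 248 ± 116 CPM in virgin females and 189 ± 47.7 CPM in males (SD, n = 6 each), and virgin female 1 was the highest library at 462 CPM. The log2 fold changes were -0.19 (interval -0.74 to 0.36) in lactating against virgin females and -0.39 (interval -0.94 to 0.16) in males against virgin females. The first of these became 0.08 without virgin female 1, and the second -0.12. The splice forms Khk-A and Khk-C cannot be told apart in these counts.

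Ratios within a library do not depend on the scaling between libraries. The log2 ratios of 7 gene pairs were compared in 3 comparisons with two-sided exact permutation tests, which cannot give a p below 0.00216 with 6 against 6 libraries, and 0 of the 21 passed adjustment. The lowest p was for Pck1 over Pck2 in males against virgin females, where the mean log2 ratio per length was 4.04 ± 0.409 and 5.26 ± 0.885 (SD, n = 6 each), a difference of -1.21 (exact permutation p = 0.00866, adjusted p = 0.182). Pkm over Pklr was -0.31 ± 0.234 in lactating females and 0.00723 ± 0.101 in males, a difference of -0.31 (exact permutation p = 0.0217, adjusted p = 0.209). An unadjusted p under 0.05 was also found for Fbp1 over Pfkl in males against virgin females (-0.41, exact permutation p = 0.0433).

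Most of the variance of the 9 genes lay within groups. The share between groups was 39.6% for Pfkl, 27.1% for G6pc, 19.8% for Pck1, 14.5% for Hk2 and 1.60% to 7.72% for the other 5, beside a median of 14.6% over all tested genes. The SD within groups on the log2 scale was 0.80 for Pck1 (92.6th percentile of all tested genes), 0.63 for G6pc, 0.61 for Hk2 and 0.18 for Pfkl (16.1th percentile), with a median of 0.32 over all tested genes.

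Part of this spread moved with the cell cycle score, the mean log2 CPM of the 35 cell cycle genes in a library. Across the 18 libraries, G6pc had Pearson's r = -0.85 (permutation p = 1e-05, the smallest the permutations can give, adjusted over the 9 genes 9e-05) and Spearman's rho = -0.837 (p = 7e-05). Khk had r = -0.837 (p = 3e-05, adjusted 0.000135) and rho = -0.839 (p = 4e-05). Pck1 had r = -0.633 (p = 0.00485, adjusted 0.0109) and rho = -0.624 (p = 0.00678). All 3 were thus lower in libraries with more cell cycle RNA, and without the 2 libraries farthest from the median score r was -0.735 for G6pc, -0.787 for Khk and -0.503 for Pck1. Within lactating females, virgin females and males, r was -0.767, -0.987 and -0.759 for G6pc, -0.89, -0.897 and -0.64 for Khk, and -0.589, -0.659 and -0.829 for Pck1 (n = 6 each, given as descriptions).

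For 2 more genes the relation passed adjustment by Pearson's r but not by Spearman's rho. Fbp1 had r = -0.585 (permutation p = 0.0112, adjusted 0.0201) and rho = -0.515 (p = 0.03, adjusted 0.054). Pfkl went the other way, with r = 0.634 (permutation p = 0.0048, adjusted 0.0109) and rho = 0.519 (p = 0.0295, adjusted 0.054). Without the 2 libraries farthest from the median score, r was -0.382 for Fbp1 and 0.401 for Pfkl, so that both rest in part on those libraries. Within lactating females, virgin females and males, r was -0.59, -0.898 and -0.05 for Fbp1 and 0.51, 0.738 and 0.876 for Pfkl (n = 6 each, descriptions). Pkm (r = -0.378), Ldha (-0.445) and Aldoa (0.115) did not pass adjustment, with permutation adjusted p-values of 0.155, 0.0972 and 0.65. No relation is read from Hk2, whose values form separate clusters of 2 and 16 libraries. In bulk RNA, fewer cells of a type and less RNA per cell cannot be told apart.

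**Figure D4:**
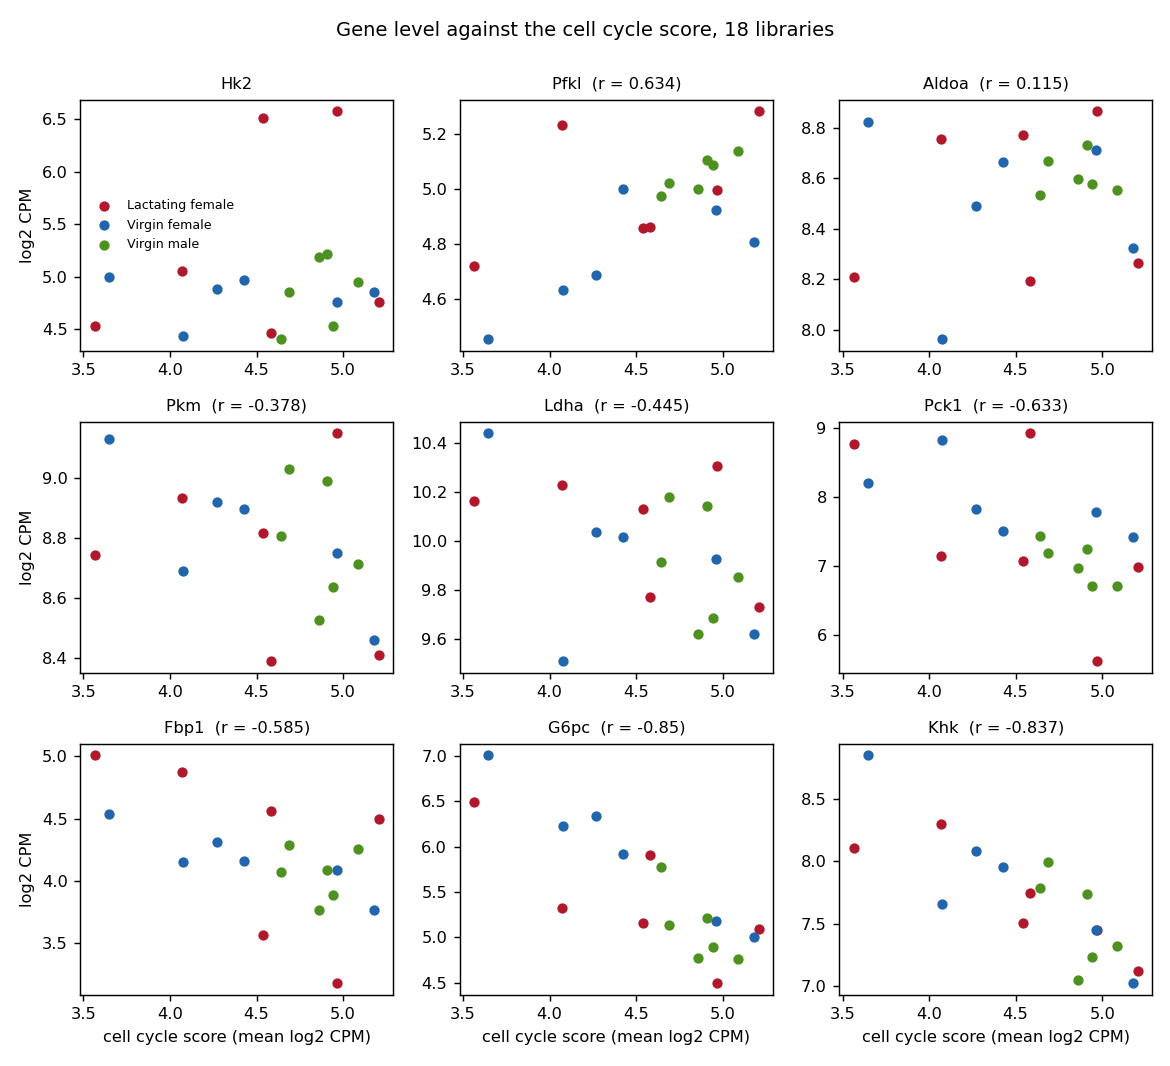
Log2 CPM of each of the 9 genes against the cell cycle score (mean log2 CPM of 35 genes) in the 18 libraries, coloured by group, with Pearson's r above each panel but that of Hk2. G6pc and Khk are lower at higher scores (r = -0.85 and -0.837), and 2 lactating libraries stand above the other 16 in Hk2.

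The 9 genes also varied with each other. Of their 36 pairs, 16 had a correlation across the 18 libraries with a permutation p under 0.05 after adjustment over the pairs, 11 of them positive and 5 negative. In 5 of the 16 the size of r was under 0.5 without the 2 libraries farthest from the median of the first gene. All share the same libraries and scaling, and 3 of the 16 involve Hk2 and are not described for the reason given above.

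The glycolytic genes Pkm and Ldha varied together, with r = 0.847 (permutation p = 1e-05, adjusted 0.00036) and rho = 0.872 (p = 1e-05), and r = 0.849 without the 2 farthest libraries. Aldoa went with both, at r = 0.688 with Pkm (p = 0.00157, adjusted 0.00879; rho = 0.763, p = 0.00043) and r = 0.679 with Ldha (p = 0.00171, adjusted 0.00879; rho = 0.686, p = 0.00208). These 3 genes were thus high or low in the same libraries, and none of them was called between groups. The r between Pkm and Ldha within groups was 0.964, 0.896 and 0.993 (n = 6 each, descriptions).

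The gluconeogenic genes Pck1 and G6pc formed another pair, with r = 0.809 (permutation p = 3e-05, adjusted 0.00054), rho = 0.882 (p = 1e-05) and r = 0.83 without the 2 farthest libraries. G6pc also went with Khk (r = 0.77, p = 0.00024, adjusted 0.00288; rho = 0.785, p = 0.00021) and against Pfkl (r = -0.745, p = 0.00048, adjusted 0.00432; rho = -0.604, p = 0.00918). Khk went with Ldha as well (r = 0.722, p = 0.00082, adjusted 0.0059; rho = 0.709, p = 0.00144). Without the 2 farthest libraries these r were 0.607, -0.571 and 0.578. Pck1 had r = -0.249 with Pkm (rho = -0.0795, permutation adjusted p = 0.464) and r = -0.15 with Ldha (rho = 0.00103, permutation adjusted p = 0.641), neither past the threshold. Fbp1 and Pfkl, whose enzymes act on the same step in opposite directions, had r = -0.0702 (rho = -0.0155, permutation adjusted p = 0.781). G6pc, Khk, Pck1 and Pfkl each also moved with the cell cycle score, and its part in these pairs was not tested.

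**Figure D5:**
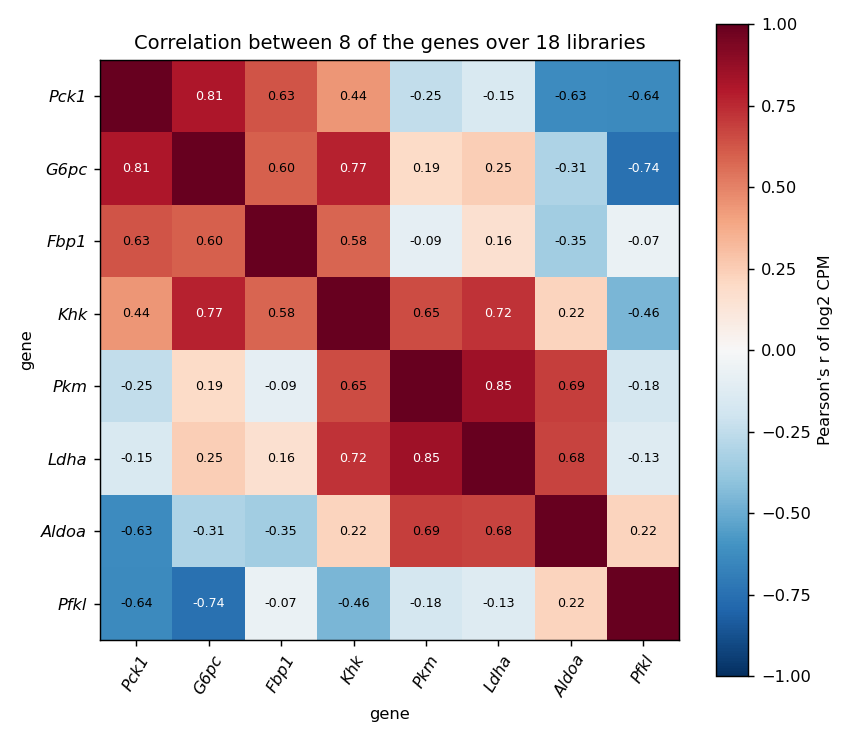
Pearson's r of log2 CPM between each pair of 8 of the genes, without Hk2, over the 18 libraries, from -1 (blue) to 1 (red). Pkm, Ldha and Aldoa are red with each other (0.68 to 0.85), as are Pck1, G6pc and Fbp1 (0.60 to 0.81), and Pck1 is blue against Aldoa and Pfkl. Some of these pairs were weaker without the 2 libraries farthest from the median of the first gene named. There r was 0.416 for Pck1 and Fbp1, 0.474 for G6pc and Fbp1, and -0.489 for Pck1 and Aldoa, but -0.778 for Pck1 and Pfkl.

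For each of the 9, the 3 most similar genes over the 18 libraries were looked up among 9394 genes with a mean of at least 5 CPM, as a description with Pearson's r of log2 CPM. Pck1 was closest to Podn (0.903), Pdk4 (0.895) and Errfi1 (0.891). Pdk4 blocks the entry of pyruvate into the citric acid cycle and was at 135, 82.4 and 142 CPM in the 3 libraries with high Pck1 and at 1.74 CPM in lactating 3. G6pc was closest to Gclm (0.959), a subunit of the enzyme that starts glutathione synthesis, then to Podn (0.932) and Aoc1 (0.931), a diamine oxidase of the gut epithelium. Khk was closest to Ppcs (0.98), an enzyme of coenzyme A synthesis, Acbd4 (0.97) and Necap2 (0.967), and Fbp1 to Ano10 (0.902), Ifi27 (0.871) and Tmem219 (0.868).

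Among the glycolytic genes, Ldha was closest to Sec13 (0.965), Atp5j (0.96) and Sdhc (0.941), the last a subunit of succinate dehydrogenase. Aldoa was closest to Maip1 (0.935), the complex I subunit Ndufs8 (0.934) and the pentose phosphate enzyme Pgd (0.917). Pkm was closest to Aph1a (0.884), Aldh16a1 (0.875) and the mitochondrial creatine kinase Ckmt1 (0.866), and Pfkl to Aven (0.907), Nadk2 (0.867) and Ntpcr (0.859). Hk2 had B3gnt7 (0.936), Ckap4 (0.881) and Reg3g (0.876), an antimicrobial lectin, as its nearest genes, given only by the rule for similar genes, since 2 of its values stand far above the other 16.

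The wider pathways were read by edgeR's test over all genes. DESeq2 and voom called no gene of these lists other than the ones named as theirs in what follows. Of 20 other glycolytic enzymes, 16 were tested and 0 were called in any comparison, with 1, 1 and 3 at an unadjusted p under 0.05 and medians of 0.06, -0.02 and 0.13 in lactating against virgin females, males against virgin females and lactating females against males. Gapdh, the central dehydrogenase of the pathway, stood 0.43 higher in lactating females than in males on the log2 scale (SE 0.195, adjusted p = 0.292) and Eno1, enolase, 0.42 higher (SE 0.177, adjusted p = 0.273). Pfkm, the muscle-type phosphofructokinase, was 0.51 higher in males than in virgin females (SE 0.212, adjusted p = 0.565).

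Of 12 other gluconeogenic genes, 11 were tested and 0 called, with 0, 7 and 3 at an unadjusted p under 0.05. In males against virgin females the median was -0.33, and 6 of the 7 were on the lower side. Most such genes in the whole table also were: 937 of the 1295 with an unadjusted p under 0.05 in this comparison were lower in males. Glycerol kinase (Gk) had the lowest p, at -0.71 (SE 0.22, edgeR adjusted p = 0.565), from 310 ± 83.1 CPM in virgin females to 190 ± 40.7 in males. The cytosolic malate dehydrogenase Mdh1 was at -0.50 (SE 0.214) and the glucose 6-phosphate transporter Slc37a4, the partner of G6pc in the endoplasmic reticulum, at -0.40 (SE 0.175), both with an adjusted p of 0.565. Got1, the cytosolic aspartate aminotransferase, was at 0.42 (SE 0.182, adjusted p = 0.279) in lactating females against males.

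All 9 other genes of fructose, polyol and mannose metabolism were tested and 0 were called, with 1, 4 and 1 at an unadjusted p under 0.05 and medians of -0.15, -0.22 and 0.07. The fructose transporter Slc2a5 was at 46.5 ± 13.6 CPM in the lactating group, 65.95 ± 19.2 CPM in virgin females and 44.2 ± 11.3 CPM in males, with log2 fold changes of -0.50 (SE 0.216, edgeR adjusted p = 0.723) and -0.58 (SE 0.217, adjusted p = 0.565) against virgin females. Glyctk, glycerate kinase, was at -0.57 (SE 0.244, adjusted p = 0.565) in males against virgin females. Akr1b3, aldose reductase, was at -0.32 (SE 0.144, adjusted p = 0.29) in lactating females against males.

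Pyruvate and lactate handling held the single called gene. Pdp1, the phosphatase that switches pyruvate dehydrogenase on, was higher in lactating females (7.76 ± 1.68 CPM) than in virgin males (4.71 ± 0.822 CPM; SD, n = 6 each), with a log2 fold change of 0.72 (SE 0.167, edgeR adjusted p = 0.0488). This call was lost in 19 of 26 alternative fits, with fold changes of 0.61 to 0.79 and adjusted p-values of up to 0.14, and DESeq2 (0.0035) and voom (0.0297) kept it. Of the 18 genes of this list, all tested, 0, 0 and 1 were called in the 3 comparisons, with 1, 2 and 5 at an unadjusted p under 0.05. Slc16a3, which exports lactate, had a log2 fold change of 1.14 (SE 0.332, adjusted p = 0.131) in lactating females against males. The pyruvate dehydrogenase kinases Pdk2, at -0.72 (SE 0.203, adjusted p = 0.565) in males against virgin females, and Pdk3, at 0.40 (SE 0.134, adjusted p = 0.186) in lactating females against males, were not called.

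Regulators were not called by edgeR. Of the 5 tested fructose 2,6-bisphosphate enzymes, 0 had an unadjusted p under 0.05 in any comparison (edgeR), the lowest p being those of Pfkfb4 (0.40, SE 0.213), Pfkfb1 (-0.30, SE 0.17), Tigar (-0.17, SE 0.127) and Pfkfb2 (0.20, SE 0.176) in lactating females against males. Of 18 transcriptional regulators, 0 were called, with 4, 2 and 2 at an unadjusted p under 0.05. Ppargc1a, a coactivator of gluconeogenic and mitochondrial genes, was at -0.66 (SE 0.171, adjusted p = 0.271) and the glucocorticoid receptor Nr3c1 at -0.24 (SE 0.105, adjusted p = 0.732) in lactating against virgin females. Klf15, a regulator of gluconeogenesis, was at -0.82 (SE 0.323, adjusted p = 0.565) in males against virgin females, and the kinase Sik1 at -0.51 (SE 0.2, adjusted p = 0.245) in lactating females against males.

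Genes known to respond to hypoxia-inducible factor outside glycolysis numbered 11, all tested, with 0 called by edgeR and 3, 0 and 5 at an unadjusted p under 0.05. Ankrd37 was at 1.81 (SE 0.479, adjusted p = 0.296) and Egln3 at -0.66 (SE 0.233, adjusted p = 0.567) in lactating against virgin females. Vegfa was at 0.96 (SE 0.283, adjusted p = 0.137) and Bnip3 at 0.77 (SE 0.246, adjusted p = 0.17) in lactating females against males. DESeq2 called Ankrd37 in both comparisons of lactating females, Vegfa and Slc16a3 against males, and voom called Vegfa against males. Without lactating 2, edgeR called Ankrd37, Vegfa and Slc16a3 against males, and with the cell cycle score as covariate it called Ankrd37 in lactating against virgin females. Of 7 genes that respond to the sugar sensor ChREBP, 0 were called by edgeR, DESeq2 or voom, with 1, 3 and 0 at an unadjusted p under 0.05, among them Gpd1 (-0.33, SE 0.153, adjusted p = 0.565) in males against virgin females. Pklr, in the same list, was at 0.27 (SE 0.164, adjusted p = 0.405) in lactating females against males.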

How the data were processed

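Bulk RNA-seq of sorted ileal epithelium was analysed from 18 libraries, 6 per group. The authors deposited 1 table per library with raw counts of reads per Ensembl gene identifier. The submitters' processing notes name HISAT2 2.0.4, FastQC 0.11.5, Subread 2.0.0 (featureCounts), DESeq2 1.24.0 and the build GRCm38. The kit was directional per the labels' protocols, but the strand setting of the counting, the annotation release and the treatment of multi-mapping reads are not given in the sources used here. Counts of genes with near-identical processed copies, such as Gapdh, Ldha and Aldoa, are therefore uncertain, although the overlapping neighbours of Aldoa (Fam57b, mean 14.7 counts against 16108) and Hk2 (Gm17034, 1.06 against 1500) were low.

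Symbols, coordinates and exon lengths came from GENCODE M21 (GRCm38), which held 47310 of the 47729 identifiers, and 0 rows named no gene. The filter filterByExpr of edgeR 4.0.16 (R 4.3.3) kept 15572 genes. A quasi-likelihood fit over the 18 libraries used TMM scaling and 1 mean for each group, and Benjamini-Hochberg adjustment ran over these genes. Calls are adjusted p-values under 0.05. The SE is |log2 fold change| over the root of the F statistic, and intervals are approximate. Where no other tool is named, an adjusted p of a gene is edgeR's. CPM values use the TMM-scaled library size, and log2 CPM used for scores and correlations had a prior count of 2. Correlations used 100000 permutations. Isozyme ratios used counts plus 0.5.

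The chi-square per degree of freedom was at least 33.3 in the 153 pairs of libraries, so no library was taken as a duplicate. Simulated data for lactating against virgin females (15420 genes) gave back 41.8% of genes changed 1.5-fold, 80.6% changed 2-fold and 89.4% changed 3-fold, with 7 false calls. The floor of 3 counts covers counting error only.

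Alternatives were other scaling, DESeq2 1.42.0, voom of limma 3.58.1 with sample weights, no filter, the compared groups alone, a block on replicate numbers, the cell cycle score as covariate, leaving out the 2 libraries that stand apart, and leaving out each library. The principal transcript length was an alternative chosen after seeing the data, as were the correlations between the 9 genes. The members and gene lists were chosen with earlier results of these data known. Named were all 9 genes, their isozyme partners, called genes of the lists, up to 4 genes per list by smallest p, and the 3 most similar genes of each of the 9. Predicted genes were left out of these, and genes outside the rule are marked. Some genes of these lists are counted but not reported here by name.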

Additional observations from a re-analysis of the deposited data

Results flagged for a closer look

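Among 48 sets of 6 libraries, made of the levels of the 9 genes and the 7 ratios in each group, 2 held a library far from the other 5, and chance alone gives about 1 in 20. G6pc in virgin males was highest in virgin male 5, at 54.6 CPM, whose gap to the next library was 0.638 of the whole range (above Dixon's 95% critical value). The log2 ratio of Ldha to Ldhb in virgin females was highest at 15.52 in 1 library, with a gap of 0.637 of the range, and Ldhb had 0 counts there.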

How the results depend on the processing

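In each comparison 0 of the 9 genes were called under every one of the 26 alternatives. Fold changes changed sign in these fits: lactating against virgin females, Pck1 (0.071) and Aldoa (-0.076) without virgin female 2 and virgin male 6, and Fbp1 (-0.037) and Aldoa (-0.038) with voom; males against virgin females, Hk2 (-0.074) without those 2 libraries, and Fbp1 (0.12), Khk (0.058), Hk2 (-0.12), Pkm (0.063) and Ldha (0.076) with the cell cycle covariate; lactating females against males, G6pc (-0.046), Khk (-0.14) and Pfkl (0.030) with that covariate. The cause was not tested. Leaving out 1 library gave, in lactating against virgin females, Pck1 -0.53 to 0.070, G6pc -0.84 to -0.28, Fbp1 0.079 to 0.39, Khk -0.33 to 0.081, Aldoa -0.076 to 0.082 and Pkm -0.15 to 0.011; in males against virgin females, Aldoa -0.0018 to 0.16, Hk2 -0.015 to 0.14, Pkm -0.093 to 0.040 and Ldha -0.12 to 0.077; in lactating females against males, Pfkl -0.11 to 0.0011 and Pkm -0.12 to 0.032. For ratios it gave Hk2/Hk1 in males against virgin females -0.13 to 0.079, Ldha/Ldhb in lactating females against males -0.10 to 0.73, Fbp1/Pfkl in lactating against virgin females -0.33 to 0.091, and Pck1/Pck2 in males against virgin females -1.40 to -0.96 (lowest adjusted p 0.0455). Against the villus tip score, whose axis runs the other way, r was 0.523 for Pck1, 0.595 for G6pc, 0.609 for Fbp1, 0.643 for Khk, -0.192 for Aldoa, -0.198 for Hk2, -0.26 for Pfkl, 0.193 for Pkm and 0.366 for Ldha. Without the 2 libraries, r with the cell cycle score was -0.045 for Aldoa and -0.64 for Ldha (adjusted permutation p = 0.0214). With principal transcript lengths the shares of Pfkl and Pkm were 9.23% and 62.3%.

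Calls over all genes moved by over 1.5 times: from 9 in lactating against virgin females to 69 (DESeq2), 2 (voom), 1 (those groups alone), 60 (covariate), 1 (without the 2 libraries) and 2 to 16 (leaving out 1 library); from 13 in males against virgin females to 30 (DESeq2), 20 (voom) and 20 (no filter); from 119 in lactating females against males to 410 (DESeq2), 217 (voom), 61 (without the 2 libraries) and 62 to 311 (leaving out 1 library). Replicate numbers are shared between groups, but same-numbered libraries deviated together unevenly (r = -0.219 to 0.477) and 0, 4 and 3 of 12 correlated best with their own number, so they were not treated as pairs. With the replicate block 0 of the 9 genes were called in each comparison, and 1, 11 and 114 of all genes. At these depths counting error was small for the 9 genes, and the spread between libraries sets the intervals.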
